A study of Mus musculus with 2 samples.

Results

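The granzymes and perforin of tumor-infiltrating immune cells (TIIs) were described from single-cell RNA sequencing of B16-OVA tumors, a mouse melanoma line carrying ovalbumin, that had been established in mice of the *Maoa* WT and *Maoa* KO genotypes. The 9 genes were the deposited rows named *Gzma*, *Gzmb*, *Gzmk*, *Gzmc*, *Gzmd*, *Gzme*, *Gzmf*, *Gzmg* and *Prf1*, out of 17232 genes, and were taken by name as the family's members with no limit on their values. The KO mice carry a hypomorphic *Maoa* allele on the C57BL/6J background, which reduces monoamine oxidase A, and the mice of the study were females of 8 to 12 weeks unless stated otherwise. At day 14 after tumor challenge, 10 tumors of each genotype were combined, live CD45.2+ cells were sorted, and 10000 cells were loaded for 1 droplet library per genotype. With 1 library per genotype there is no replicate check: no test between genotypes was possible, and each interval given is an exact 95% interval that covers counting error only.

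Cytotoxic lymphocytes kill by releasing granules that hold perforin and granzymes. Perforin, the product of *Prf1*, forms pores in the membrane of the target cell, and the granzymes, a family of serine proteases, enter through these pores. Granzyme B cuts after aspartate and activates caspases, granzymes A and K cut after basic residues, and granzymes C to G are rodent paralogs of granzyme B. Resting mouse NK cells are known to hold granzyme B and perforin messages with little of the proteins, so a transcript level is not a protein level.

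The 9 genes lie in 3 places of the genome (GRCm38). *Gzma* and *Gzmk* are on chromosome 13, *Prf1* is on chromosome 10, and *Gzme*, *Gzmd*, *Gzmg*, *Gzmf*, *Gzmc* and *Gzmb* lie in this order, with *Gzmn* among them, within 145 kb of the minus strand of chromosome 14 (chr14:56117626-56262260), a stretch that holds 7 protein-coding genes. The 150 bases before the RefSeq start of the 6 chromosome 14 members are shown because their transcripts differed in how they spread over cells (GRCm38.p6, minus strand, 5′ to 3′). Capitals mark a 20-base run that *Gzmc*, *Gzmd*, *Gzme*, *Gzmf* and *Gzmg* share and that *Gzmb* lacks.
*Gzmb* (chr14:56262335-56262484): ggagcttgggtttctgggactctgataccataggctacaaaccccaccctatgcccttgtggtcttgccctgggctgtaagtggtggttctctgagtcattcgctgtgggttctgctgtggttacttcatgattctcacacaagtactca
*Gzmc* (chr14:56234658-56234807): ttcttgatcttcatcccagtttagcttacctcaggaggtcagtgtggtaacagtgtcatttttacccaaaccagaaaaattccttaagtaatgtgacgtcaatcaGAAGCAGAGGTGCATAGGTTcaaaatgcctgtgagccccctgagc
*Gzmd* (chr14:56132594-56132743): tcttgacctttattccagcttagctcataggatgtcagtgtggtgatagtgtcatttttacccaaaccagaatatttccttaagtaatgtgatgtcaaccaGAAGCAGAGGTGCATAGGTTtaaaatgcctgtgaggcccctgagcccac
*Gzme* (chr14:56120626-56120775): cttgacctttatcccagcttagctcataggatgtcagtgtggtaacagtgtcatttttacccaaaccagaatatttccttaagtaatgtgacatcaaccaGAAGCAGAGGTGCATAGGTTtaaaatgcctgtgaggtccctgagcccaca
*Gzmf* (chr14:56211408-56211557): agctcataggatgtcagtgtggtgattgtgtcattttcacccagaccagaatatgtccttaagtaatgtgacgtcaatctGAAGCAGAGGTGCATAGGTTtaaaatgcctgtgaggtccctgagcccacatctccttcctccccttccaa
*Gzmg* (chr14:56159580-56159729): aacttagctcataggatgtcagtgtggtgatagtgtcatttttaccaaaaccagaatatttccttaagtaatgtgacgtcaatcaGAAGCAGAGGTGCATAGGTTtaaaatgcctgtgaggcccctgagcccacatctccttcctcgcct

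The run was taken as the longest string common to the printed *Gzmc* to *Gzmg* windows, so a count of promoters that hold it tests nothing. It was found in 5 of 32851 RefSeq promoters of 300 bases (250 before to 50 after the start), those of *Gzmc* to *Gzmg*. It began 45 bases before the start in *Gzmc*, 49 in *Gzmd*, 50 in *Gzme*, 70 in *Gzmf* and 65 in *Gzmg*. Aligned without gaps, the printed *Gzmd* and *Gzmg* windows were 97.0% identical over 134 bases, *Gzmc* was 78.1 to 85.4% identical to the other 4, and *Gzmb* was no more than 34.4% identical to any of the 5. On either strand of the 300 bases, the RUNX letters AACCACA were in 7 of 9 members, all but *Gzmk* and *Prf1*, and in 5.27% of all promoters. The ETS letters CAGGAAGT were in *Gzmc* to *Gzmg* and *Prf1* and in 3.33% of promoters. In *Gzmc* to *Gzmg*, which resemble each other, the RUNX matches lay 175 to 196 bases before the start and the ETS matches 200 to 221. The promoters of these paralogs are thus not separate cases to set beside the share of all promoters. The CRE letters TGACGTCA were in *Gzmc*, *Gzmf* and *Gzmg*, where they are visible just before the capitals, and in 1.79% of promoters. The AP-1 letters TGANTCA were in *Gzmb* alone among the members and in 7.81% of promoters, and the T-box letters AGGTGTGA were in none of the 9 windows and in 1.28% of promoters. These 5 patterns did not overlap each other in the members, and a match describes letters, not binding.

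The table held 2392 cells of the library labelled WT with 28801253 UMIs, and 2630 cells of the library labelled KO with 23702018 UMIs. Median depth differed, at 9887.5 and 6945.5 UMIs per cell. *Maoa*, the targeted gene, was detected as 7 UMIs over 6 WT-labelled cells and as 15 over 14 KO-labelled ones, so these counts do not bear out the labels, and whether the hypomorphic allele still gives a 3′ tag was not tested. The libraries are therefore named by their labels throughout. They shared 13 barcodes, and without those cells the log2 ratio of *Gzmb*, for example, was -1.37 in place of -1.38 in NK cells and still -0.62 in CD8 T cells.

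Cells were clustered without the 9 members and without 38 other cytotoxic genes, and classes were named from marker lists. The NK cells numbered 178 and 258 (labelled WT, then KO, here and below), with an *Ncr1* UMI in 73.2% of cells and a *Cd3e* UMI in 11.2%. CD8 T cells numbered 801 and 811 and fell into 5 states: checkpoint-high (305 and 149), cycling (191 and 67), naive-like (119 and 222), a state led by *Srm*, the gene of spermidine synthase (143 and 330), and a state led by the interferon-induced gene *Ifit3* (43 and 43). All 5 were placed among CD8 T cells because *Cd8a* was more than 10 times *Cd4* in the cluster. The naive-like cluster passed this narrowly, with 261 *Cd8a* and 24.6 *Cd4* counts per 1000000 UMIs over both libraries. Whether it holds *Cd4* cells was not tested. The last 2 states met no list of state markers and are called by their leading genes. A further cluster held *Cd4* and *Cd8a* cells together (132 and 208), and regulatory T cells (98 and 92) had a *Foxp3* UMI in 84.7% of cells. Tumor-associated macrophages (TAMs) and monocytes numbered 969 and 832, dendritic cells (DCs) 132 and 296, plasmacytoid DCs (pDCs) 48 and 70, and B cells 7 and 24. Cells with at least 3 *Cd3* UMIs and at least 5 UMIs of 8 myeloid genes, which may be doublets, numbered 479 and 278, of which 244 and 103 were among the CD8 T cells. Levels are given as counts per 1000000 UMIs of the class (CPM), and are compared between classes and libraries, not between genes.

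Each member had its own distribution over the classes. NK cells held 79.9 and 80.6% of all *Gzma* UMIs. CD8 T cells held 83.4 and 62.6% of *Gzmk*, 76.7 and 69.8% of *Gzmb*, 82.6 and 72.6% of *Prf1*, and 89.2 and 80.3% of the summed UMIs of *Gzmd* to *Gzmg*. *Gzmc* was divided, with 43.1 and 35.5% in NK cells and 52.9 and 55.3% in CD8 T cells. Regulatory T cells held 3.25 and 8.06% of *Gzmb* and under 1% of *Gzma*, *Gzmk* and *Gzmc*.

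**Figure D1:**
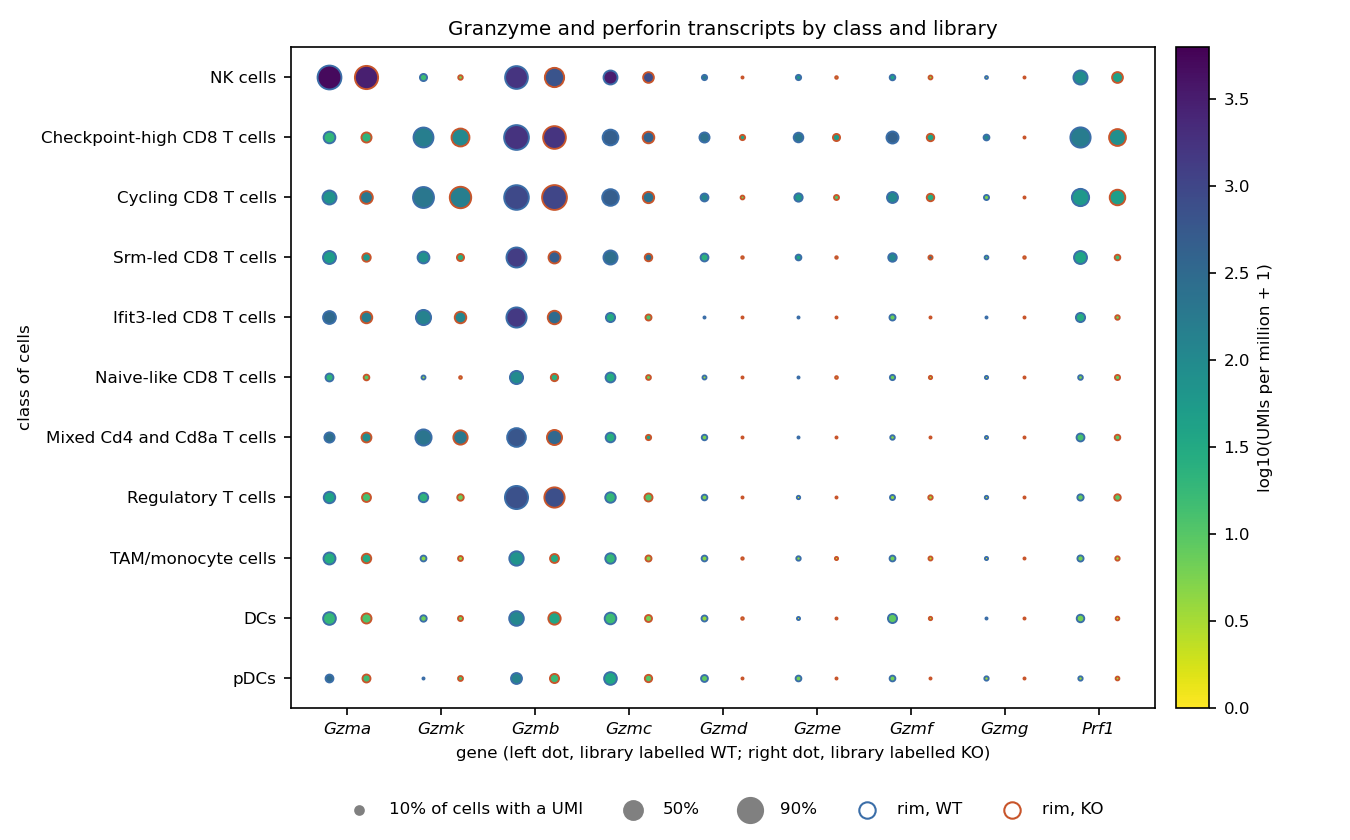
Each dot is 1 gene (x axis) in 1 class of cells (y axis), with the library labelled WT on the left and KO on the right. Dot area gives the percent of cells with a UMI, not corrected for depth, and color gives log10(CPM + 1). *Gzma* is darkest in NK cells (5027 and 3043 CPM), *Gzmb* spans NK cells, CD8 T cells and regulatory T cells, and *Gzmd* to *Gzmg* are strongest in checkpoint-high CD8 T cells labelled WT, where 14.1% of cells had *Gzmd*.

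*Gzma*, the tryptase-like granzyme, stood at 5027 CPM (4895 to 5162) in NK cells of the library labelled WT and at 3043 CPM (2945 to 3144) in those labelled KO. Both values were above every other class: the next were 328 CPM in *Ifit3*-led cells and 315 CPM in pDCs, both labelled WT, and a subset of the mixed cluster labelled WT, its cells with *Cd8a* or *Cd8b1* UMIs and none of *Cd4*, was at 401 CPM. The share of NK cells with a *Gzma* UMI, after each cell was thinned to 3000 UMIs, was 77.0% (70.1 to 82.9%) and 74.8% (68.9 to 80.1%), so the intervals overlapped while the level differed. At 3000 UMIs no cell labelled WT was too shallow to be used, and 8 NK cells, 18 CD8 T cells, 1 regulatory T cell and 2 TAMs or monocytes labelled KO were left out. In NK cells that had the transcript, the median was 29 UMIs per cell in the library labelled WT and 14 in that labelled KO, at median depths of 4817 and 3946.5 UMIs.

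Outside NK cells, *Gzma* rested on single cells more than on classes. In pDCs labelled WT, 1 cell held 114 of 117 *Gzma* UMIs, and without it the level was 8.33 CPM against 13.9 CPM in those labelled KO. In cycling CD8 T cells labelled KO, 1 cell held 173 of 236 UMIs, and the level without it was 52.7 CPM in place of 196. In the mixed *Cd4* and *Cd8a* cluster labelled WT, 1 cell held 175 of 259 UMIs, and the level without it was 86.5 CPM in place of 265, or 109 in place of 401 in the subset with *Cd8a* or *Cd8b1* UMIs and none of *Cd4*. Checkpoint-high cells were low in both libraries, at 18.6 and 21.3 CPM from 77 and 37 UMIs, and TAMs and monocytes were at 26.8 and 28.8 CPM. Without the highest cell labelled KO, 25 of the 37 UMIs were left in checkpoint-high cells and 185 of 258 in TAMs and monocytes.

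*Gzmk*, the other tryptase-like granzyme, was largely a T cell transcript and was close to absent from NK cells, with 16 and 6 UMIs. The highest levels were in cells of the mixed cluster that had *Cd8a* or *Cd8b1* UMIs and none of *Cd4*, at 307 CPM (264 to 355) and 278 CPM (235 to 325). Cycling CD8 T cells were at 195 CPM (181 to 210) and 156 CPM (134 to 180), checkpoint-high cells at 152 CPM (140 to 164) and 104 CPM (89.0 to 120), and *Ifit3*-led cells at 130 CPM (92.7 to 178) and 114 CPM (71.6 to 173). The intervals of checkpoint-high and *Ifit3*-led cells overlapped in both libraries, and mixed-cluster cells with *Cd4* UMIs only were at 56.3 and 112 CPM on 9 and 25 UMIs. Naive-like cells had 2 and 1 UMIs of *Gzmk*. After thinning to 3000 UMIs, 34.6 and 32.8% of cycling cells and 31.8 and 29.7% of checkpoint-high cells had a *Gzmk* UMI, with intervals that overlapped between the libraries in both states. The *Srm*-led state stood apart, at 80.3 CPM (69.2 to 92.6) and 24.4 CPM (18.1 to 32.0).

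*Gzmb* had a UMI in more cells than any other member, 1194 and 698. In the library labelled WT it stood at 1741 CPM (1701 to 1782) in checkpoint-high cells, 1699 (1623 to 1779) in NK cells, 1481 (1346 to 1626) in *Ifit3*-led cells, 1348 (1301 to 1395) in *Srm*-led cells, 919 (888 to 951) in cycling cells, 720 (664 to 780) in regulatory T cells, 601 (553 to 652) in the mixed cluster and 95.2 (72.3 to 123) in naive-like cells. The intervals of the first 4 overlapped from neighbor to neighbor, and those of the later neighbors did not. The order differed in the library labelled KO, where checkpoint-high cells were at 1699 CPM (1638 to 1761), cycling cells at 1021 (964 to 1079) and regulatory T cells at 767 (708 to 830), while NK cells were at 653 (608 to 701), *Srm*-led cells at 501 (471 to 532), the mixed cluster at 337 (302 to 375), *Ifit3*-led cells at 306 (233 to 395) and naive-like cells at 23.7 (15.5 to 34.7). The classes thus fell into those with like levels in both libraries (checkpoint-high, cycling and regulatory T cells) and those with a lower level in the library labelled KO.

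For CD8 T cells as 1 class, *Gzmb* was at 1292 CPM (1271 to 1314) and 840 CPM (818 to 863), a log2 ratio of KO over WT of -0.62 (-0.67 to -0.58). This pooled ratio moved with the way cells were combined. It was -0.35 when the 5 states were given the same mix in both libraries, -1.30 when each cell counted equally and -1.05 without the cells that may be doublets. Within states it was -0.04 (-0.10 to 0.03) in checkpoint-high cells, 0.15 (0.06 to 0.25) in cycling cells, -1.43 (-1.53 to -1.33) in *Srm*-led cells and -2.26 (-2.69 to -1.88) in *Ifit3*-led cells. A single *Srm*-led cell labelled KO held 365 of 1048 *Gzmb* UMIs, and the ratio without the highest cell of each library was -1.94. The *Srm*-led cells also differed in make-up, since 53 of 143 and 31 of 330 had T cell and myeloid UMIs together, at median depths of 7400 and 4423 UMIs, and the part of this in the ratio was not tested. In checkpoint-high cells 1 cell labelled KO held 474 of 2954 UMIs, and the ratio without the highest cells was -0.18.

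The share of CD8 T cells with a *Gzmb* UMI was counted as well. At 3600 UMIs per cell it was 60.0% (56.5 to 63.5%) of 788 cells and 29.1% (25.7 to 32.7%) of 676 cells, and without thinning 71.2 and 32.3%. With classes taken from UMIs of defining markers instead of clusters it was 51.6 and 33.3%. At 3000 UMIs it was 71.5 and 60.8% in checkpoint-high cells, 63.9 and 67.2% in cycling cells, 37.1 and 15.7% in *Srm*-led cells, and 21.8 and 5.14% in naive-like cells. Checkpoint-high cells thus had a lower share in the library labelled KO at a like level, with intervals of 66.1 to 76.5% and 52.5 to 68.7% that overlapped. TAMs and monocytes, which should lack the transcript, had a *Gzmb* UMI in 9.80 and 3.98% of cells at this depth (median depths before thinning 10372 and 8713 UMIs), so the naive-like share labelled KO was near that level, and the background itself was higher in the library labelled WT. The part of free RNA in the difference between the libraries was not tested.

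Markers of activation divided CD8 T cells further. At 3000 UMIs, 68.7 and 55.2% of cells with a *Pdcd1* UMI (the checkpoint receptor PD-1) also had *Gzmb*, against 40.2 and 16.6% of cells without. For cells with a UMI of the checkpoint receptor *Havcr2* they were 72.0 and 69.0%, against 50.5 and 21.6% of those without. For the cycling marker *Mki67* they were 65.1 and 68.3%, against 52.2 and 22.7%. For cells with a UMI of *Tcf7*, a transcription factor of naive and stem-like T cells, the shares were 16.0 and 5.78%, against 60.1 and 32.7% of those without. *Prf1* was found in 26.8 and 15.5% of *Pdcd1*-positive cells and in 8.15 and 2.42% of the others, and *Gzmk* in 28.8 and 28.7% against 13.8 and 4.85%. *Pdcd1*-positive cells numbered 396 of 801 and 174 of 793.

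*Prf1*, the pore-forming partner, was highest in checkpoint-high cells, at 166 CPM (154 to 179) and 81.7 CPM (68.8 to 96.3). NK cells were at 93.0 CPM (75.7 to 113) and 42.2 CPM (31.3 to 55.7), and cycling cells at 58.8 CPM (51.1 to 67.4) and 48.1 CPM (36.5 to 62.2). *Srm*-led cells were at 36.5 and 14.3 CPM, and regulatory T cells had 6 and 7 UMIs in all, or 7.20 CPM (2.64 to 15.7) and 8.75 CPM (3.52 to 18.0), beside 5.20 CPM (3.99 to 6.67) and 2.01 CPM (1.19 to 3.18) in TAMs and monocytes. The log2 ratio was -1.02 (-1.29 to -0.76) in checkpoint-high cells, where *Gzmb* was at -0.04, and -1.13 (-1.66 to -0.64) in NK cells. In cycling cells it was -0.28 (-0.74 to 0.14), an interval that holds no difference. No CD8 T cell or NK cell held more than 27 *Prf1* UMIs, and without the highest cell of each library the 3 ratios were -1.03, -1.11 and -0.41.

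**Figure D2:**
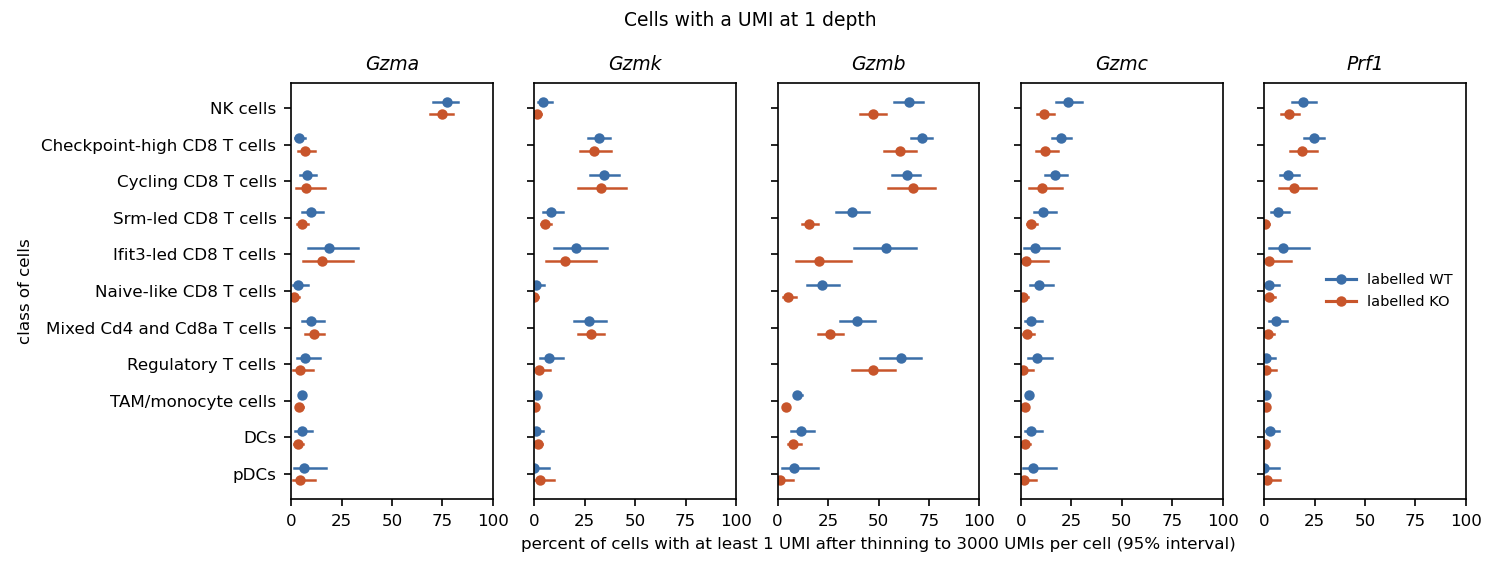
Percent of cells with at least 1 UMI of each gene (x axis) after each cell was thinned to 3000 UMIs, by class (y axis), with the library labelled WT in blue and KO in orange; bars are exact 95% intervals for counting error. *Gzma* separates NK cells (77.0 and 74.8%) from all other classes. *Gzmb* shares differ between the libraries in NK (65.2 and 47.2%), *Srm*-led (37.1 and 15.7%), *Ifit3*-led (53.5 and 20.5%), naive-like and regulatory T cells (61.2 and 47.3%) more than in cycling cells (63.9 and 67.2%).

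Killing through granules needs perforin and a granzyme in the same cell, so the pair was counted at 3000 UMIs per cell. *Gzmb* and *Prf1* UMIs occurred together in 20.3% (16.0 to 25.3%) and 13.5% (8.45 to 20.1%) of checkpoint-high cells, in 14.6% (9.77 to 20.7%) and 7.20% (4.32 to 11.1%) of NK cells, in 9.42 and 10.4% of cycling cells, and in 1.02 and 1.10% of regulatory T cells, 1 cell in each library. *Gzma* and *Gzmb* occurred together in 53.4 and 40.4% of NK cells and in 3.28 and 5.41% of checkpoint-high cells. *Gzmk* and *Gzmb* occurred together in 24.6 and 23.0% of checkpoint-high cells and in 3 and 1 NK cells. Cells with none of the 9 transcripts made up 9.55 and 15.2% of NK cells, 29.6 and 49.5% of regulatory T cells, 63.9 and 91.1% of naive-like cells, and 78.0 and 89.5% of TAMs and monocytes.

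Regulatory T cells, which restrain other lymphocytes, carried *Gzmb* with almost no *Prf1*. Their *Gzmb* log2 ratio was 0.09 (-0.07 to 0.26), an interval that holds no difference, and was -0.26 with classes taken from UMIs of defining markers and 0.39 with 1 round of clustering. The share with a *Gzmb* UMI was 61.2% (50.8 to 70.9%) and 47.3% (36.7 to 58.0%) at 3000 UMIs, 61.1 and 56.2% at 3700 UMIs, and 76.5 and 58.7% without thinning, and the median in cells with the transcript, before thinning, was 4 and 7.5 UMIs. *Gzma* was at 39.6 and 12.5 CPM and *Gzmk* at 21.6 and 6.25 CPM, on 33 UMIs or fewer. In the mixed cluster, *Gzmb* was at 831 CPM (760 to 908) and 504 CPM (446 to 567) in cells with *Cd8a* or *Cd8b1* and no *Cd4* UMIs, and at 275 CPM (200 to 370) and 62.8 CPM (34.3 to 105) in cells with *Cd4* UMIs only, which numbered 28 and 51.

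The remaining chromosome 14 members were carried by few cells. *Gzmc* in NK cells stood at 3172 CPM (3067 to 3280) and 829 CPM (778 to 883), although 27.5 and 15.9% of these cells had any *Gzmc* UMI, and 1 cell held 713 of 3446 UMIs in the library labelled WT and 1 held 436 of 982 in that labelled KO. The log2 ratio was -1.93 (-2.04 to -1.83), and -2.45 without these cells. In checkpoint-high cells *Gzmc* was at 458 and 418 CPM, a ratio of -0.13 (-0.26 to -0.01). In cycling cells it was at 470 and 234 CPM, but 1 cell labelled KO held 241 of 282 UMIs, and the ratio went from -1.01 to -3.41 without the highest cells.

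*Gzmd*, *Gzme*, *Gzmf* and *Gzmg* were at their highest in checkpoint-high cells of the library labelled WT. There *Gzmd* was at 247 CPM (232 to 263), *Gzme* at 199 (186 to 213), *Gzmf* at 434 (415 to 455) and *Gzmg* at 108 (98.6 to 119). In checkpoint-high cells labelled KO, *Gzmd* was at 36.2 CPM (27.8 to 46.4), *Gzme* at 52.9 (42.7 to 64.9) and *Gzmf* at 36.8 (28.3 to 47.0), log2 ratios of -2.76, -1.91 and -3.55. *Gzmg* had 450 UMIs labelled WT, 348 of them in 1 cell, and none labelled KO, which is 62.8-fold lower when the 0 is set to the floor of 3 UMIs, and 14.3-fold without that cell. The exact interval of this log2 ratio, which also covers the error of the WT count, ends at -5.67. In NK cells *Gzmd* had 183 UMIs, 123 of them in 1 cell, and none, 66.5-fold lower by the same floor and 22.0-fold without that cell, with an exact interval that ends at -5.74 on the log2 scale. Reads of these paralogs can be told apart over most of the region sequenced: of 410 windows of 91 bases in the last 500 bases of each transcript, *Gzmd* and *Gzme* shared 6 and no other pair of the 9 members shared one.

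**Figure D3:**
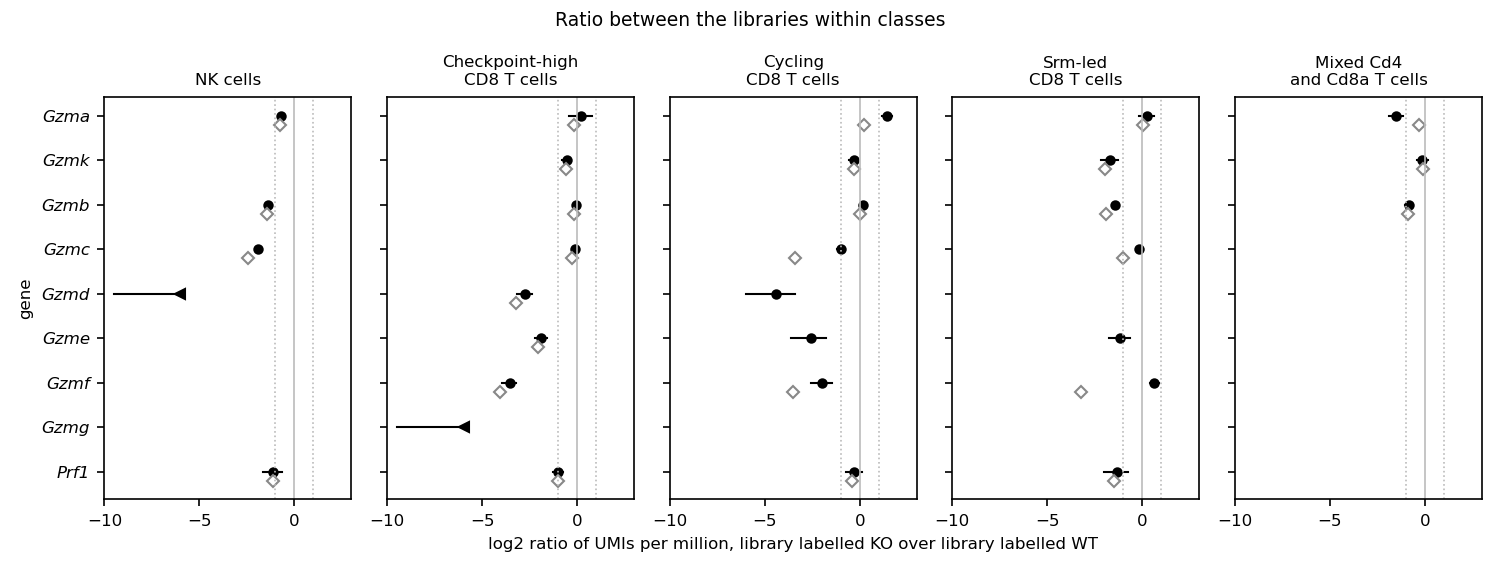
Log2 ratio of CPM, library labelled KO over WT (x axis), for each gene with at least 100 UMIs (y axis) in NK cells, 3 states of CD8 T cells and the mixed cluster; filled points are all cells with 95% intervals for counting error, open diamonds leave out the highest cell of each library, with no diamond where 3 or fewer KO UMIs remain, and arrows mark the ratio with the KO count set to the floor of 3 UMIs where it was 0. Dotted lines mark 2-fold, and among the diamonds drawn the distance to the point is widest for *Gzmf* in *Srm*-led cells (0.63 and -3.23).

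The number of cells behind each gene was counted directly. At least 50% of the UMIs were held by 77 and 32 cells for *Gzmb*, 70 and 39 for *Prf1*, 76 and 55 for *Gzmk* and 38 and 48 for *Gzma*. For *Gzmc* 12 and 6 cells held them, for *Gzmd* 7 and 2, for *Gzme* 9 and 3, and for *Gzmf* 8 and 1. Cells with at least 20 UMIs of *Gzmd* to *Gzmg* numbered 44 of 2392, or 1.84% (1.34 to 2.46%), and 7 of 2630, or 0.266% (0.107 to 0.548%). They held 91.8 and 86.7% of the UMIs of these 4 genes. Of the 44, 25 were checkpoint-high, 11 cycling, 3 *Srm*-led and 3 NK cells, and of the 7, 4 were checkpoint-high. Among checkpoint-high cells this was 8.20% (5.37 to 11.9%) and 2.68% (0.736 to 6.73%). These cells were deep, with medians of 22595.5 and 22822 UMIs, and 28 of the 44 and 5 of the 7 were among those that may be doublets, whose part in this difference was not tested.

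**Figure D4:**
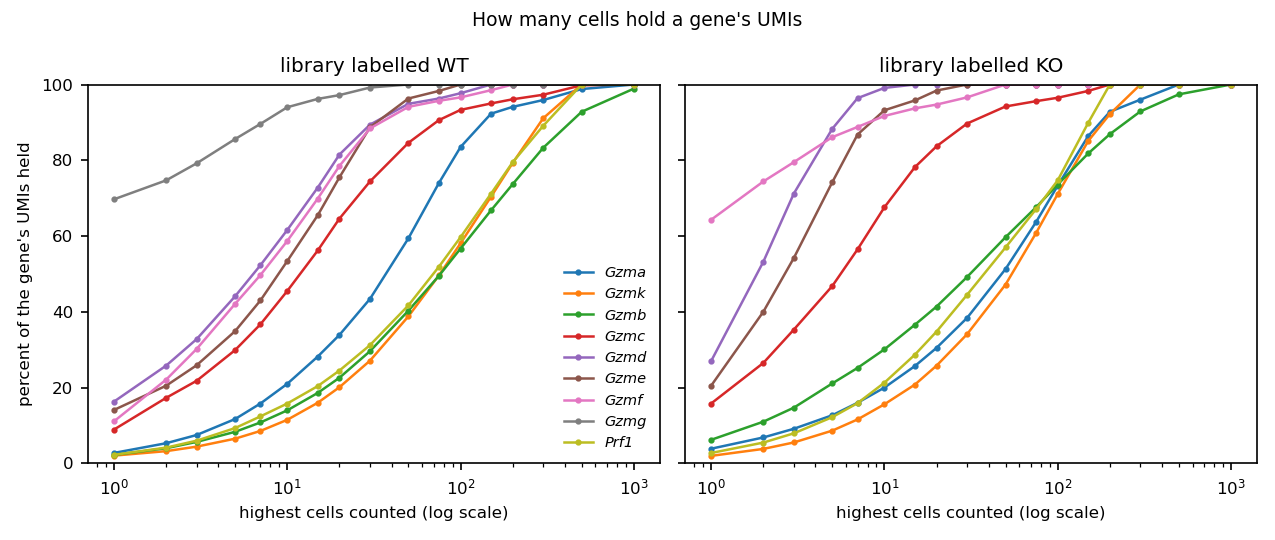
Percent of a gene's UMIs in the library (y axis) held by its highest cells, counted from the highest down (x axis, log scale), for the library labelled WT on the left and KO on the right; *Gzmg*, with 1 UMI, is left out on the right. The curves of *Gzmk*, *Prf1*, *Gzmb* and *Gzma* rise late and those of *Gzmc* to *Gzmg* early, with 50% reached at 12 cells or fewer.

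Cells high in *Gzmc* and cells high in *Gzmd* to *Gzmg* overlapped in part. With at least 20 UMIs as the limit for each, 43 CD8 T cells labelled WT were high in *Gzmc*, 39 in *Gzmd* to *Gzmg*, and 21 in both, which is 48.8% of the first and 53.8% of the second. In the library labelled KO the counts were 12, 6 and 5. Among NK cells, 17 labelled WT were high in *Gzmc*, of which 3 were high in *Gzmd* to *Gzmg* and 11 had no UMI of these 4 genes. No other NK cell labelled WT was high in *Gzmd* to *Gzmg*. NK cells labelled KO held 9 cells high in *Gzmc* and 0 high in *Gzmd* to *Gzmg*, and 7 of the 9 had no UMI of the 4 genes. Over checkpoint-high cells the correlation of log2 values between *Gzmd* and *Gzme* was 0.87 in 305 cells and 0.85 in 149, that of *Gzmc* and *Gzmd* 0.64 and 0.60, that of *Gzmb* and *Gzmc* 0.50 and 0.51, and that of *Gzmb* and *Prf1* 0.42 and 0.36. These cells share a library and differ in depth, and the values are given as a description.

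**Figure D5:**
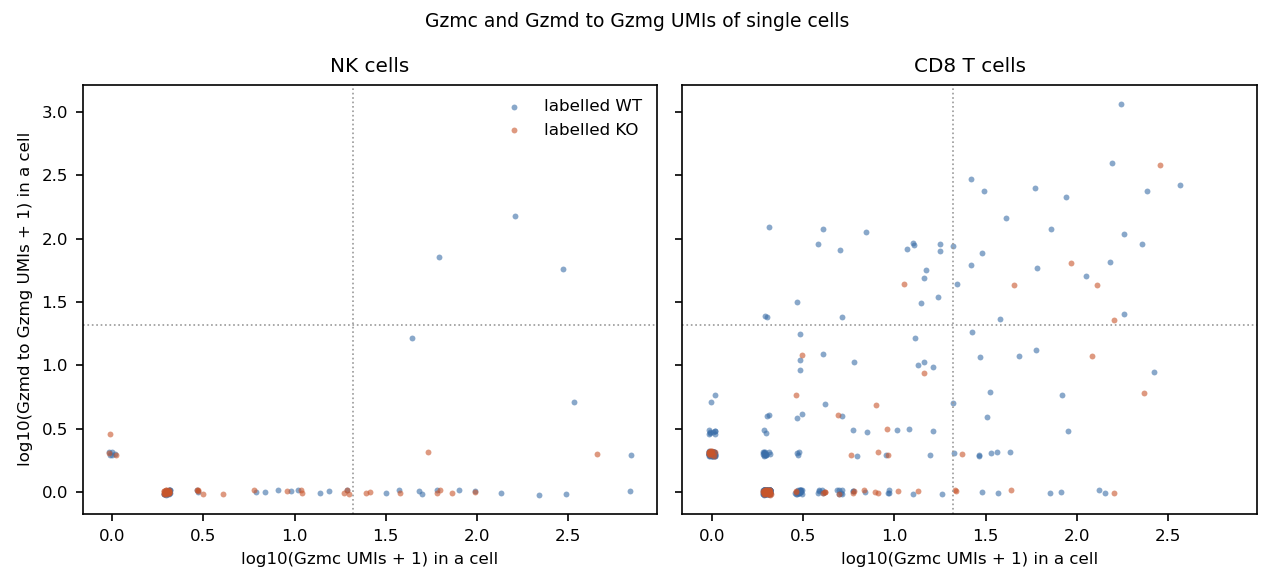
Each point is 1 cell with at least 1 UMI of either axis, with *Gzmc* UMIs on the x axis and UMIs of *Gzmd* to *Gzmg* on the y axis, jittered, for both libraries; dotted lines mark 20 UMIs. CD8 T cells fill the upper right (21 labelled WT and 5 labelled KO), whereas most NK cells high in *Gzmc* lie along the bottom (11 of 17 and 7 of 9 with no UMI of the other 4 genes).

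The 36 checkpoint-high and cycling cells labelled WT that were high in *Gzmd* to *Gzmg* were set beside the other 460 cells of these states. Their *Gzmb* was at 3893 CPM against 1060, *Gzmc* at 2652 against 202, and *Prf1* at 321 against 92.1. *Serpinb9b*, a serpin related to the granzyme B inhibitor *Serpinb9*, was at 388 CPM (347 to 434) against 11.5 (9.11 to 14.3), and *Serpinb9* itself at 270 against 111. *Gzmk* went the other way, at 102 CPM (81.6 to 127) against 180 (170 to 190), as did *Tox*, a factor of exhausted T cells, at 101 against 215, and the cycling marker *Mki67* at 47.5 against 123. Of the checkpoint receptors, *Havcr2* was higher, at 174 CPM (147 to 205) against 97.2 (89.9 to 105), while *Lag3* was at 424 (380 to 471) against 409 (394 to 424) and *Pdcd1* at 452 (407 to 500) against 460 (444 to 476), and *Cd8a* and *Nkg7* were at 823 and 3060 CPM against 774 and 2897. In the library labelled KO, 5 such cells had *Gzmb* at 5004 CPM against 1281 in the other 211, *Gzmc* at 3992 against 200, *Havcr2* at 117 (62.5 to 201) against 97.7 (86.6 to 110), and *Serpinb9b* at 36.1 (9.84 to 92.5) against 10.2 (6.85 to 14.7). *Gzma* and *Ifng* went opposite ways in the libraries, with *Gzma* at 125 against 32.9 CPM labelled WT and 27.1 (5.59 to 79.2) against 95.3 (84.2 to 107) labelled KO, and *Ifng* at 319 against 240 and 108 against 266. The cells were chosen by 4 of the members, so these values describe them and test nothing. Of the 36 labelled WT, 18 of 25 checkpoint-high and 5 of 11 cycling cells were among those that may be doublets. In the whole states labelled WT these numbered 97 of 305 and 88 of 191. Their part in the values was not tested.

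Members past a 2-fold difference were then counted among those with at least 100 UMIs in a class over both libraries. A member could reach this limit through the library labelled WT alone. *Gzmd* in NK cells (183 and 0 UMIs) and *Gzmg* in CD8 T cells (487 and 1) and checkpoint-high cells (450 and 0) did so, and had to differ. Other members called lower also had fewer than 100 UMIs labelled KO. In NK cells this was *Prf1* (101 and 50), and in CD8 T cells *Gzmd* (1491 and 79). In checkpoint-high cells they were *Gzmd* (1026 and 63), *Gzme* (827 and 92) and *Gzmf* (1803 and 64). In cycling cells they were *Gzmd* (409 and 6), *Gzme* (217 and 12) and *Gzmf* (375 and 32). More were in the smaller classes, so the counts are a description. In NK cells 4 of 5 members were at least 2-fold lower in the library labelled KO, where 1.29% of 2487 genes were, and the median log2 ratio was -1.38 for the members and 0.01 for all genes. The member short of 2-fold was *Gzma*, at -0.72 (-0.79 to -0.66). In CD8 T cells as 1 class 6 of 9 were lower, where 1.81% of genes were, with medians of -1.27 and -0.11. *Prf1*, at -1.27, was at -0.88 and so short of 2-fold when the 5 states were given the same mix. *Gzmk* was among the 6 by a narrow margin, at -1.02, and scaling without ribosomal and mitochondrial transcripts or by the median of ratios moved every CD8 ratio up by 0.12. The other 3 were *Gzmb* at -0.62, *Gzmc* at -0.68 and *Gzma* at 0.43, the last at -0.04 without the highest cell of each library.

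By state, 5 of 9 members were lower in checkpoint-high cells, where 1.35% of genes were, and 4 of 8 in cycling cells, where 1.41% of genes were. In both states most of the members called lower had fewer than 100 UMIs labelled KO. *Prf1* in checkpoint-high cells, at -1.02, and *Gzmc* in cycling cells, at -1.01, were past 2-fold by a narrow margin. In *Srm*-led cells 4 of 7 were lower, where 7.48% of genes were and the median over all genes was -0.27, and other scalings moved the ratios of this state up by 0.19 and 0.27, more than the margin of *Gzme*, at -1.18, whose 37 UMIs labelled KO were all in 1 cell. One member, *Gzma* in cycling cells, was at least 2-fold higher (0.424% of genes were), and its log2 ratio of 1.46 was 0.23 without the highest cells. In *Ifit3*-led cells both members with enough UMIs were lower (3.64% of genes), *Gzma* by a narrow margin at -1.01 where another scaling moved the ratios up by 0.14, in the mixed cluster 1 of 3 was (1.49% of genes), and in regulatory T cells *Gzmb* alone had enough UMIs and was not (1.07% of genes). The mixed cluster's call was *Gzma*, whose ratio went from -1.53 to -0.29 without the highest cells. No member of naive-like cells reached 100 UMIs, where 0.952% of genes were at least 2-fold lower and 0.366% higher.

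In the direction of a higher level in the library labelled KO, members past 2-fold were counted in the same classes. There were 0 of 5 members in NK cells, where 0.442% of genes did, 0 of 9 in CD8 T cells, where 1.13% did, 0 of 9 in checkpoint-high cells, where 0.540% did, and 0 of 7 in *Srm*-led cells, where 2.39% did. The same count was 0 of 2 in *Ifit3*-led cells (0.364% of genes), 0 of 3 in the mixed cluster (0.220%), 0 of 1 in regulatory T cells (0.233%), 0 of 3 in TAMs and monocytes (0.684%) and 0 of 1 in DCs (0.396%). Among the 19 and 14 T or NK cells that were not named, *Gzmc* had 21 and 137 UMIs, a log2 ratio of 3.18 (2.54 to 3.95), with 136 of the 137 in 1 cell.

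The 38 other genes of the cytotoxic pathway were counted in the same way. In NK cells 2 of the 20 with at least 100 UMIs were at least 2-fold lower in the library labelled KO, where 1.29% of all genes were, and none was higher, with a median of 0.04. In CD8 T cells 3 of 35 were lower (1.81% of all genes) and none higher (median -0.31), and in checkpoint-high cells 2 of 29 (1.35% of all genes) and none (median -0.12). The serpins, some of which inhibit granzymes, had the lowest median of the 6 groups in all 3, at -0.53, -0.93 and -0.53. *Serpinb9b* was at 95.7 and 43.9 CPM in NK cells, a ratio of -1.12 (-1.63 to -0.63), and at 48.9 and 8.05 CPM in checkpoint-high cells, a ratio of -2.56 (-3.50 to -1.82). Checkpoint-high and cycling cells that were not high in *Gzmd* to *Gzmg* had *Serpinb9b* at 11.5 CPM (9.11 to 14.3) and 10.2 CPM (6.85 to 14.7), intervals that overlapped. The highest serpins were *Serpinb6b* in NK cells (-0.28) and *Serpinb6a* in checkpoint-high cells (0.51). In regulatory T cells *Serpina3g* was at 736 CPM and 291 CPM, a ratio of -1.34 (-1.56 to -1.12), and was the single gene lower among 12.

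Of the granule matrix and membrane genes, *Lamp1*, the lysosomal membrane protein used to mark degranulation, was the lowest, at -1.48 (-1.98 to -1.01) in NK cells and -1.74 (-2.37 to -1.20) in checkpoint-high cells, and *Nkg7*, a granule membrane protein, the highest, at 0.08 and 0.20. Of 7 granule release genes, the 2 with at least 100 UMIs in NK cells were *Snap23* at -0.43 and *Stxbp2* at -0.26, and in checkpoint-high cells, where all 7 reached this limit, they lay between -0.68 (*Vamp7*) and 0.19 (*Lyst*). Among the other granule proteases, *Ctsw* was at 0.31 and *Ctsc*, which activates granzymes by removing their leading dipeptide, at 0.08 in NK cells, and at 0.14 and -0.57 in checkpoint-high cells. The death ligand *Fasl* was at 0.38 and 0.16, and *Ifng*, the gene of interferon gamma, at 0.41 and 0.13. Transcription factors of cytotoxic cells ranged from 0.01 (*Bhlhe40*) to 0.43 (*Zeb2*) in NK cells and from -0.27 (*Runx3*) to 0.21 (*Prdm1*) in checkpoint-high cells.

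In myeloid cells the transcripts stood at a low level that was partly tied to T cell RNA. *Gzmb* in TAMs and monocytes was at 68.3 CPM (63.7 to 73.2) and 30.4 CPM (26.9 to 34.2), and 67.0 and 70.2% of these UMIs lay in the 145 and 67 cells with at least 3 *Cd3* UMIs. In cells with no *Cd3* UMI it was at 33.2 CPM (27.6 to 39.7) and 11.7 CPM (8.49 to 15.7). *Gzma* went the other way, since 11.9 and 6.98% of its UMIs were in cells with at least 3 *Cd3* UMIs, and its level in cells with none was 40.0 CPM (33.8 to 47.0) and 42.5 CPM (36.2 to 49.6). A *Gzma* UMI was found in 18.6 and 9.67% of these cells without *Cd3* UMIs, not corrected for depth. In the whole class, 1 cell labelled KO weighed on *Gzma*, since 185 of 258 UMIs were left without it. The lower *Gzmb* of TAMs and monocytes labelled KO, a ratio of -1.17 (-1.37 to -0.97), included 1 cell with 121 of the 272 UMIs labelled KO, and was -1.82 without the highest cells, at 59.8 and 16.9 CPM. In DCs the ratio was -1.60 (-1.91 to -1.28), but 90.2 and 80.4% of the *Gzmb* UMIs lay in cells with at least 3 *Cd3* UMIs. DCs with no *Cd3* UMI were at 18.6 CPM (8.92 to 34.2) and 8.87 CPM (4.72 to 15.2), intervals that overlapped, and 2 of 3 members in TAMs and monocytes and 1 of 1 in DCs were lower where 1.68 and 1.92% of genes were.

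The genes most like each member were sought among 4962 genes with at least 1000 UMIs, by the correlation of log2(CPM + 1) over 24 points, 12 classes in each library, which share libraries and depth. *Gzma* was followed by *Klra7* (0.81), *Ugcg*, *Ncr1*, *Itgb1* and *Klra4* (0.75), 3 of which are NK cell receptors. *Gzmb* was followed by *Il2rb* (0.92), a subunit of the receptor for interleukins that act on NK and T cells, then *Tsr3*, *Rgs16*, *Sh2d2a* and *Mrps23* (0.89). *Gzmk* was followed by *Cxcr6* (0.90), a chemokine receptor, then *Ifng*, *Cd2bp2*, *Tma7* and *Rpa2* (0.80). *Gzmc* and *Prf1* were each other's closest gene, at 0.92. After it came *Ccl1*, *Klrc2*, *Nrgn* and *Klre1* for *Gzmc*, and *Nrgn*, *Ifng*, *Gzmb* and *Stk39* for *Prf1*.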

How the data were processed

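Tumor-infiltrating immune cells from 10 pooled tumors of each genotype were sequenced as 1 Chromium 3′ V2 library each. Per the submitters' processing notes, Cell Ranger and the mm10 build were used, and the 2 libraries were aggregated. The authors' cell filter asked for 300 UMIs, for 100 detected genes and for a mitochondrial share no higher than 5%, and all 5022 deposited cells passed it. The deposited values are on a natural log scale, ln(1 + UMIs per 10000 UMIs of the cell), as the authors' Seurat normalisation gives. They are not raw counts, although each cell's values gave whole UMIs (100% of values within 0.01) when divided by the smallest.

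UMIs were summed per class and library, and log2 ratios had 0.5 UMIs added to each sum. Cells were clustered with Seurat 5.3.0 (R 4.3.3), with 13 PCs, resolution 0.8, depth regressed out, and 580 variable genes for all cells and 364 for T and NK cells, with the 9 members and 38 pathway genes left out. Intervals were exact (scipy 1.17.1, Python 3.11.15), namely Poisson for levels, Clopper-Pearson for shares and conditional binomial for ratios. A count of 0 was set to a floor of 3 UMIs for a fold. Shares were thinned to a stated number of UMIs. No doublet caller was run. Cells with T cell and myeloid UMIs together were counted and left out in an alternative. The interval step was tested on simulated data.

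The members, marker lists and pathway list were chosen with earlier results of these data known, and the rule that names clusters was set after seeing them. Named genes were the 9 members, the highest and lowest pathway gene of each group with at least 100 UMIs, and the 5 genes most similar to each of 5 members. The limit of 20 UMIs for a high cell and the genes set beside those cells were chosen after values were seen. Promoters came from RefSeq (GRCm38.p6) and transcripts from GENCODE M21.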

Additional observations from a re-analysis of the deposited data

How the results depend on the processing

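Values are log2 ratios of the library labelled KO over WT. *Gzmb* in CD8 T cells, -0.62, was -1.05 without cells positive for T cell and myeloid genes, -1.30 with each cell weighted equally, -1.18 with each cell thinned, -0.35 with an equal mix of states, -0.38 with classes taken from UMIs of defining markers, -0.51 without depth regression, -0.50 without ribosomal and mitochondrial UMIs and -0.50 by the median of ratios. *Prf1* in CD8 T cells, -1.27, was -1.57, -1.84, -2.14 and -0.88 under the first 4 of these. *Gzmb* in NK cells, -1.38, was -1.24 with classes from markers, -1.16 with equal weights and -1.09 when thinned. *Gzma* in NK cells, -0.72, was -0.61 with the members among the clustering genes. *Gzmb* in regulatory T cells, 0.09, was -0.26 with classes from markers. The difference in the share of CD8 T cells with a *Gzmb* UMI, -30.9 points, was -18.3 with classes from markers, -38.9 without thinning and -18.4 for at least 3 UMIs. The cause was not tested for any of these. *Prf1* in NK cells stayed between -1.31 and -0.93. Members past 2-fold in NK and CD8 T cells numbered 10 of 14 (1.29 and 1.81% of all genes were lower). A minimum of 30 UMIs added *Gzme* (75 and 2 UMIs) and *Gzmf* (46 and 4) in NK cells, which passed it through the library labelled WT alone.

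Some alternatives were chosen after seeing the data. One round of clustering gave 0.39 for *Gzmb* in regulatory T cells, and leaving out the highest cell of each library gave -0.71 for *Gzmb* in CD8 T cells. Removal of barcodes found in both libraries moved none of these results beyond its interval. No paired analysis was possible because each genotype had 1 library. Depth limits *Prf1* and *Gzmk* in regulatory T cells, with at most 18 UMIs in either library.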

Other observations

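One round of clustering of all cells, in place of separate clustering of T and NK cells, gave a further cluster of 59 and 158 T cells (labelled WT, then KO) marked by Ly49 receptor genes. Its *Gzma* stood at 238 and 121 CPM and its *Gzmb* at 162 and 156 CPM, with a *Gzmb* UMI in 42.4 and 19.6% of cells before thinning. *Gzmc* stood at 37.7 and 170 CPM, a log2 ratio of 2.14 (1.43 to 3.02), but 136 of the 145 UMIs labelled KO were in 1 cell and the ratio was -1.22 without the highest cells.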
